A study of Mus musculus with 18 samples.

Results

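In the hippocampus of Arid1a conditional knockout (cKO) mice, 3353 H3K27me3 peaks lay on an H3K4me3 site and had no counterpart in the wild type (WT). They were chosen from the authors' peak lists as cKO H3K27me3 peaks that share no base with a WT H3K27me3 peak and at least 1 bp with a cKO H3K4me3 peak. They were 3353 of the 15659 cKO H3K27me3 peaks (21.4%), against 4124 H3K27me3 peaks in WT in all, and they are called new peaks on H3K4me3 sites here. The groups were C57BL/6 mice with the cKO of Arid1a and wild-type C57BL/6 mice. ChIP-seq for H3K27me3, H3K4me3, H3K27ac and input had 1 library per genotype at 3 weeks, so peaks are described and no test between genotypes was possible. RNA-seq had 2 cKO and 2 WT libraries at 3 weeks (P21) and 3 cKO and 3 WT libraries at embryonic day 16.5 (E16.5), and the series design describes them as biological replicates. Neither the Cre line nor the deleted cell population is named in the labels, which limits what the cKO stands for.

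H3K27me3 is deposited by Polycomb repressive complex 2 and marks genes held silent, above all developmental regulators. H3K4me3 marks the starts of active or poised genes, and a site with both marks is called bivalent. ARID1A belongs to BAF, a SWI/SNF-type chromatin remodeller that is known to oppose Polycomb. In bulk tissue, both marks at one place can come from the same cells or from different cells.

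These 6 promoters are printed to show what such a site holds. They are those of Prox1 and C1ql2, genes of dentate granule neurons, of Padi2, an enzyme gene of myelinating cells, of Bcan, which encodes the matrix proteoglycan brevican, of Drd1, the D1 dopamine receptor gene, and of Cgas, the DNA sensor gene under the new peak with the highest fold enrichment. Each runs 5′ to 3′ on the gene's own strand, from 250 bases before the RefSeq start to 50 after it (GRCm38.p6), with CpG dinucleotides in capitals.
Prox1: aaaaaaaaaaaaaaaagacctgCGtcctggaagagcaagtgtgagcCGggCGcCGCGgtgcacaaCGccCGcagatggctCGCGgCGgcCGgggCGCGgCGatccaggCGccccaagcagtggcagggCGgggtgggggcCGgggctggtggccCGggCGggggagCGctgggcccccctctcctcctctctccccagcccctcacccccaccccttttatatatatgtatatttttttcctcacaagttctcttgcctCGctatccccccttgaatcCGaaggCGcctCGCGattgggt
C1ql2: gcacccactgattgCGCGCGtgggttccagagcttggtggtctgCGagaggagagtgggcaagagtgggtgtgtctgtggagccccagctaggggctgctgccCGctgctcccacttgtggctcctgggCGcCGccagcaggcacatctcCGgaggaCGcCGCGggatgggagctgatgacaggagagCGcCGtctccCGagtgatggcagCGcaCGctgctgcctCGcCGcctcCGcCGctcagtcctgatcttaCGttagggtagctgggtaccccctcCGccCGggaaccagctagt
Padi2: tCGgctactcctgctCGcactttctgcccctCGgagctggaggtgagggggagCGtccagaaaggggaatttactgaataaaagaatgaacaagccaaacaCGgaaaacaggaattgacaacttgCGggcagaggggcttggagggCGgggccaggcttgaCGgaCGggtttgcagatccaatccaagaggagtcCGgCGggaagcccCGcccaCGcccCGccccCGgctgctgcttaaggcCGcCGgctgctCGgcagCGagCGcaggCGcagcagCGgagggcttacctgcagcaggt
Bcan: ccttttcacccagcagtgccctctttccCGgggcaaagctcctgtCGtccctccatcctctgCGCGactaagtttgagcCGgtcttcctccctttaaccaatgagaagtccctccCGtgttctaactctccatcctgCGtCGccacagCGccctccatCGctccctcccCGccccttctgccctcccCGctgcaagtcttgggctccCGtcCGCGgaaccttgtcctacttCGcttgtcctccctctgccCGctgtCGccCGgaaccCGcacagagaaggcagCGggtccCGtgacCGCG
Drd1: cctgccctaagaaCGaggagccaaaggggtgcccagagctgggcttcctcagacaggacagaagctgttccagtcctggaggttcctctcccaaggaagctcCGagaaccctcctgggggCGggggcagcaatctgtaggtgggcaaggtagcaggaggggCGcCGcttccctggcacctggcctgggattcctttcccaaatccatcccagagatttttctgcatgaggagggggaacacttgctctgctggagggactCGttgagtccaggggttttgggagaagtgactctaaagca
Cgas: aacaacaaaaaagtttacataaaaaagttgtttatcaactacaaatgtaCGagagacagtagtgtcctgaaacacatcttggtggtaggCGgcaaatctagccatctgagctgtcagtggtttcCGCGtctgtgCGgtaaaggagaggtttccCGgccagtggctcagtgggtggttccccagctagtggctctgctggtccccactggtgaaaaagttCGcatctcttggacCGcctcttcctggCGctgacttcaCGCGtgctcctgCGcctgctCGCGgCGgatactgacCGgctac

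All 6 windows lay wholly inside a new peak. The Prox1 window (chr1:190170778-190171077, minus strand) held 25 CpGs and the C1ql2 window (chr1:120340332-120340631, plus strand) held 23. Padi2 (chr4:140906110-140906409, plus strand) had 22, Bcan (chr3:88000307-88000606, minus strand) had 24 and Cgas (chr9:78443188-78443487, minus strand) had 16. Drd1 (chr13:54054731-54055030, minus strand) stood apart with 6 CpGs and an observed-over-expected CpG ratio of 0.23. Over the 1809 RefSeq promoters with a new peak within 1 kb of the start, this ratio had a median of 0.67 and was at least 0.6 in 60.4%. Promoters with no new peak but an H3K27me3 peak on H3K4me3 that was also called in WT were close to this, with a median of 0.68 and 62.2%. The ratio was at least 0.6 in 74.0% of promoters with cKO H3K4me3 and no H3K27me3 and in 3.07% of those with neither mark. Over the 32851 promoters in the RefSeq table used it was so in 35.8%. Promoters on chromosome 18, where 103 of the new peaks lay, were not analysed here. The motif GCGCGC, which reads the same on both strands, was in 29.2% of promoters with a new peak, 27.4% of those with H3K4me3 alone and 13.6% of the promoters in the table. CACGTG, also the same on both strands, was in 7.57%, 10.4% and 7.15% of the same 3 sets.

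The new peaks on H3K4me3 sites were narrow and of moderate height. Their median length was 553 bp (quartiles 345 and 963 bp) and their median fold enrichment over input, as the authors' peak caller gave it here and throughout, was 5.41 (quartiles 4.51 and 6.61). Peaks that were also called in WT are named kept peaks here, and the 815 of them on H3K4me3 had a median of 2374 bp and 10.6-fold. The 10212 new peaks away from H3K4me3 had 357 bp and 4.79-fold. The cKO and WT H3K27me3 libraries held 17399169 and 18009991 tags, so depth was similar. At the 2094 kept peaks the cKO over WT ratio of fold enrichment had a median log2 value of 0.79 (quartiles 0.40 and 1.14), with median folds of 9.37 in cKO and 5.36 in WT. The H3K27me3 signal over input was thus higher in the cKO library at shared sites too, and its part in the number of new peaks was not tested. With the cKO list cut to its 4124 top peaks, 1095 new peaks on H3K4me3 sites were left.

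**Figure D1:**
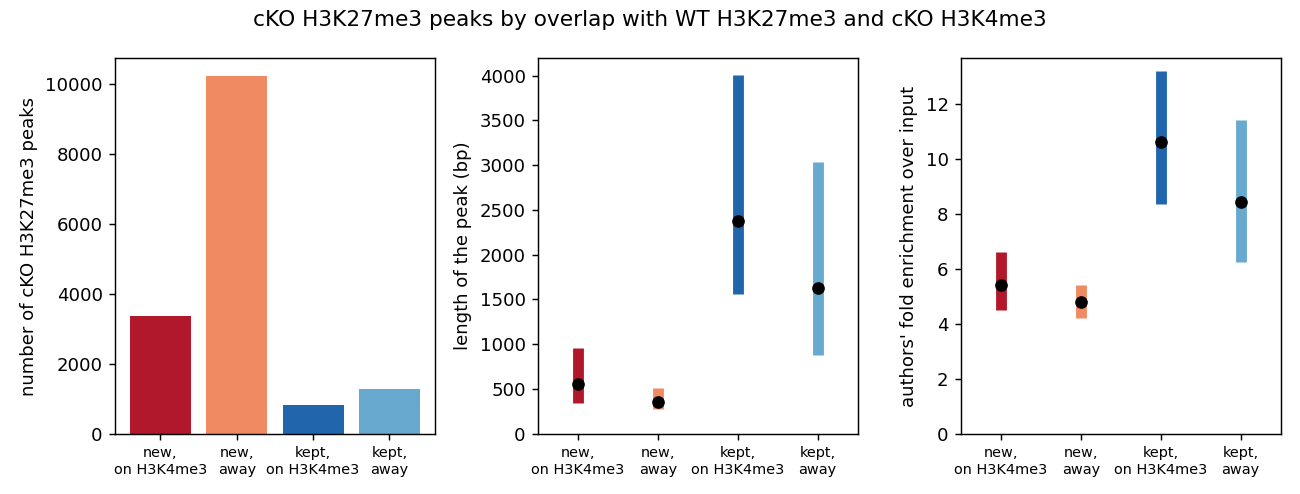
Number (left), length in bp (middle) and fold enrichment over input (right) of cKO H3K27me3 peaks, split by overlap with WT H3K27me3 (kept or new) and with cKO H3K4me3. Points are medians and thick bars run between quartiles; the 3353 new peaks on H3K4me3 (553 bp, 5.41-fold) are shorter and lower than the 815 kept ones (2374 bp, 10.6-fold).

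Most lay within 1 kb of a gene start or end, and few lay next to WT H3K27me3. Of the 3353 peaks, 2232 (66.6%) overlapped 1 kb either side of a gene start or end and 2979 (88.8%) lay in or touched a gene body. The median distance to the nearest WT H3K27me3 peak was 562 kb, against 54.1 kb for new peaks away from H3K4me3. Within 1 kb of a WT peak were 93 (2.77%), against 10.5% of the new peaks away from H3K4me3. H3K4me3 covered a median of 83.7% of a new peak's length, and 1262 peaks (37.6%) were covered whole. Just inside the rule, the members with least H3K4me3 overlap shared 2, 2 and 3 bp with it, and just outside, the nearest new peaks without overlap were 0, 1 and 1 bp away. On the WT side, the nearest members were 2, 4 and 20 bp from a WT H3K27me3 peak. The least overlap among kept peaks on H3K4me3 was 46, 47 and 48 bp.

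Most of these sites carried H3K4me3 in WT as well. A WT H3K4me3 peak overlapped 82.0% of the new peaks (95% Wilson interval 80.7 to 83.3, counting error only), against 70.2% of kept peaks on H3K4me3. Seen from the H3K4me3 side, 3107 of the 28234 cKO H3K4me3 peaks (11.0%) lay under a new H3K27me3 peak. Of these 3107, 80.5% overlapped a WT H3K4me3 peak, close to the 77.5% of H3K4me3 peaks with no H3K27me3. Under a kept peak it was 57.7%. At those of the 3107 also called in WT, the cKO over WT ratio of H3K4me3 fold enrichment had a median log2 value of 0.01. It was -0.12 at H3K4me3 peaks with no H3K27me3. H3K27ac, found at active regulatory elements, was less frequent at H3K4me3 peaks under a new H3K27me3 peak than at those with no H3K27me3. It overlapped 35.0% of H3K4me3 peaks under a new H3K27me3 peak in the cKO lists (33.3 to 36.6) and 16.1% in the WT list (14.8 to 17.4). At H3K4me3 peaks with no H3K27me3 it overlapped 54.4% in cKO and 34.0% in WT, and at those under a kept peak 9.29% in cKO and 0.694% in WT. The cKO H3K27ac list was longer in all, with 24065 peaks against 13006 in WT. By H3K27ac state, 2155 new H3K27me3 peaks (64.3%) had it in neither genotype, 710 (21.2%) in cKO alone, 436 (13.0%) in both and 52 (1.55%) in WT alone.

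**Figure D2:**
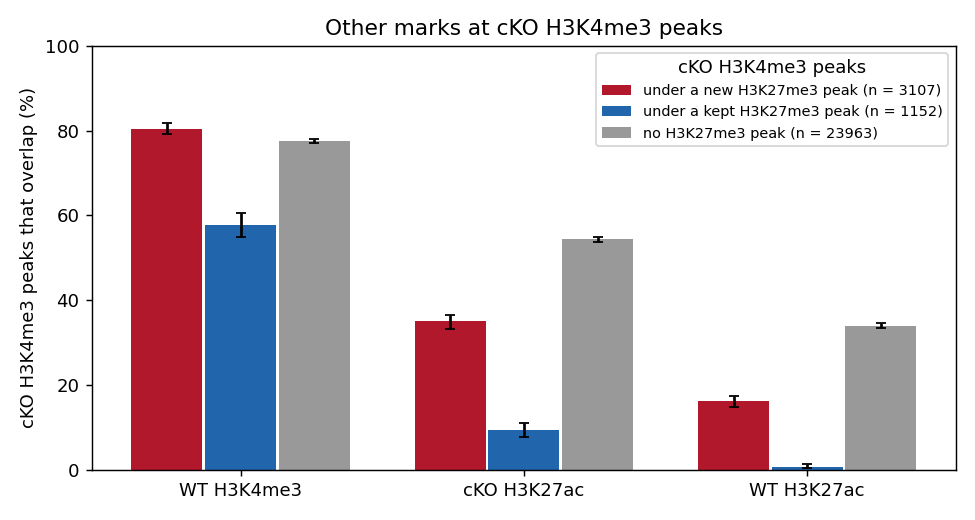
Share of cKO H3K4me3 peaks (%) that overlap a WT H3K4me3, cKO H3K27ac or WT H3K27ac peak, for those under a new H3K27me3 peak (red), under a kept one (blue) and with none (grey). Bars are shares and error bars are 95% Wilson intervals for counting error; H3K27ac under new peaks (35.0% in cKO, 16.1% in WT) lies between the other sets.

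The highest new peaks stood at genes of several kinds. Cgas had the highest fold enrichment, 15.7, in a peak of 2404 bp (chr9:78441544-78443947). Celsr1, an adhesion receptor of planar cell polarity, followed with 15.33. Then came the shared peak of Matn4 and Rbpjl with 14.13, and Slc6a4, the serotonin transporter gene, and Shisa8 with 13.83 each. Dll4, a Notch ligand gene, and Slc10a4 had 13.23 each, and Prkcz, Megf11 and Tcf15 had 12.93 each. Among the 5 widest peaks were those at Shh, the hedgehog ligand gene (5148 bp), Gm32351 (5128 bp), Ntf3, a neurotrophin gene (4839 bp), and Prox1, the homeodomain factor of dentate granule cells (4750 bp, chr1:190169829-190174578). The Shh and Gm32351 peaks lay 0.524 and 0.824 kb from a WT H3K27me3 peak and the Prox1 peak 1010 kb from one.

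In all, 1976 genes had a new peak on an H3K4me3 site, of which 1721 were protein-coding, which is 8.08% of the 21303 protein-coding genes with coordinates. A kept peak was at 3.92% of those protein-coding genes. Here and in the lists below, kept peaks count whether on H3K4me3 (815 peaks) or away from it (1279 peaks). Of the 1976 genes with a new peak, 81 also had a kept or WT H3K27me3 peak within the same reach. New peaks were frequent at genes of neuronal function, and also at some developmental lists given below. Of 102 potassium, sodium and calcium channel genes 48 (47.1%) had one and 7 (6.86%) had a kept peak. Among 71 axon guidance genes 21 (29.6%) had a new peak and 5 (7.04%) a kept one, and among 74 glutamate and GABA receptor and synapse genes the counts were 19 (25.7%) and 8 (10.8%). Of 14 hippocampal neuron markers 9 had a new peak, namely Fibcd1, C1ql2, Neurod2, Prox1, Slc17a7, Grik4, Pou3f1, Bok and Cpne4. Markers of other regions had them too, at 4 of 6 thalamic markers and 3 of 9 striatal neuron markers. Homeobox factors, the textbook targets of Polycomb, showed the other pattern, with a new peak at 18 of 172 (10.5%) and a kept peak at 142 (82.6%). Among forkhead, Sox, Gata and T-box factors 13 of 84 (15.5%) had a new peak and 46 (54.8%) a kept one. The bHLH developmental factors had 19 (29.2%) and 26 (40.0%) of 65. The Wnt, Fgf, Bmp and hedgehog ligands and inhibitors had 27 (31.0%) and 36 (41.4%) of 87. In both of these lists the share with a new peak was close to that of axon guidance and synapse genes. None of 77 ribosomal protein genes, 11 microglia markers, 12 subunits of H3K4 methyltransferase complexes, 4 H3K4 demethylases or 2 H3K27 demethylases had one. Epop and Phf19 of 12 PRC2 subunits and Dpf1 of 25 other BAF subunits did, and Cbx2 was among the PRC1 subunits that did. The lists are read by their counts, and no difference between lists was tested.

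**Figure D3:**
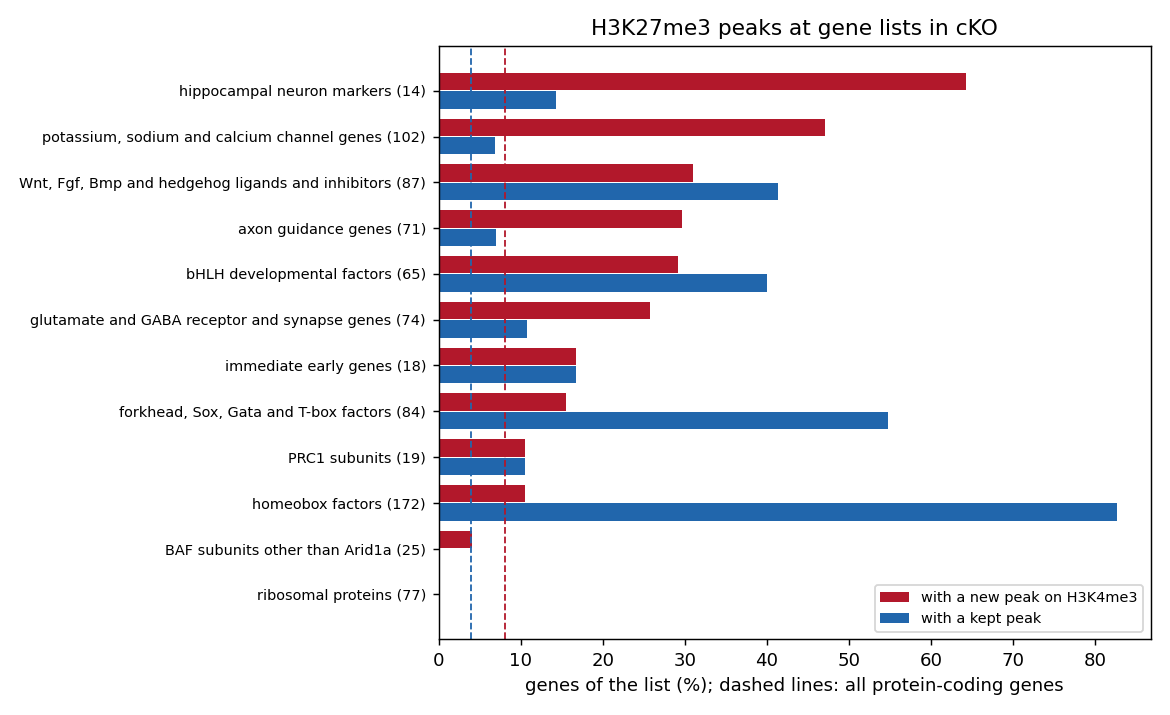
Share of genes (%) with a new H3K27me3 peak on an H3K4me3 site (red) or a kept H3K27me3 peak on or away from H3K4me3 (blue). Each list of more than 12 genes is shown, with the list's size in brackets. Dashed lines give the shares over all protein-coding genes (8.08% and 3.92%). Among the lists shown, hippocampal neuron markers (64.3%) and channel genes (47.1%) had the highest shares with a new peak. Homeobox factors (82.6%) had the highest share with a kept peak.

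RNA was not used to choose the peaks and was compared between genotypes for the genes that carry them. Arid1a itself had 110 and 89.2 CPM, counts scaled to library size, in cKO at P21, against 215 and 205 in WT (log2 change -1.08, SE 0.13, edgeR adjusted p = 0.00507). Among E16.5 libraries the level was 180, 175 and 176 CPM in cKO, against 262, 282 and 285 in WT (-0.64, SE 0.06, edgeR adjusted p = 0.032). The groups did not overlap at either age, and cKO was lower at both. Library totals after rounding ranged over 20089455 to 20331994 (P21) and 17662154 to 19760616 (E16.5). In bulk tissue, fewer cells of a type and less RNA per cell cannot be told apart.

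At P21 genes under a new peak were called lower more often than genes at large, and also called higher more often. Of the 1976 genes, 1616 passed the filter on low counts. Of these, 137 (8.48%) were lower in cKO, against 3.91% of all 17407 tested genes, and 78 (4.83%) were higher, against 2.81% of all (edgeR, adjusted p under 0.05). At an unadjusted p under 0.05, 341 (21.1%) were lower and 242 (15.0%) higher, against 13.2% and 11.7% of all. DESeq2 called 166 (10.4%) lower and 77 (4.85%) higher, against 4.96% and 2.85% of all. Every cKO library was below every WT library for 33.0% and above for 27.8%, against 27.9% and 28.2% of all. The median log2 change was -0.03 (0.01 over all tested genes). Genes with a kept peak on H3K4me3 and no new one went the other way in these counts, with 3.88% lower, 6.20% higher and a median of 0.21. Genes whose new peaks all lay away from H3K4me3 had 5.06% lower, 11.0% higher and a median of 0.25. Genes with H3K4me3 and no H3K27me3 had 3.01% lower and 2.02% higher. Microglia markers, none of which had a new peak, were lower at the same age, with 6 of 11 called and a summed level of 203 to 215 CPM in cKO and 312 to 351 CPM in WT. None of them was at 0 in every P21 library, and the part of other cell types in these counts was not tested. The counts depended on single libraries. Fewer genes were called without either WT replicate and more without either cKO replicate, and the shares over all tested genes moved the same way. The median log2 change of genes under a new peak stayed between -0.04 and -0.01 with each library left out in turn. In a fit of all 10 libraries 43 (2.50%) were lower and 16 (0.93%) higher, against 1.84% and 0.817% of all.

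**Figure D4:**
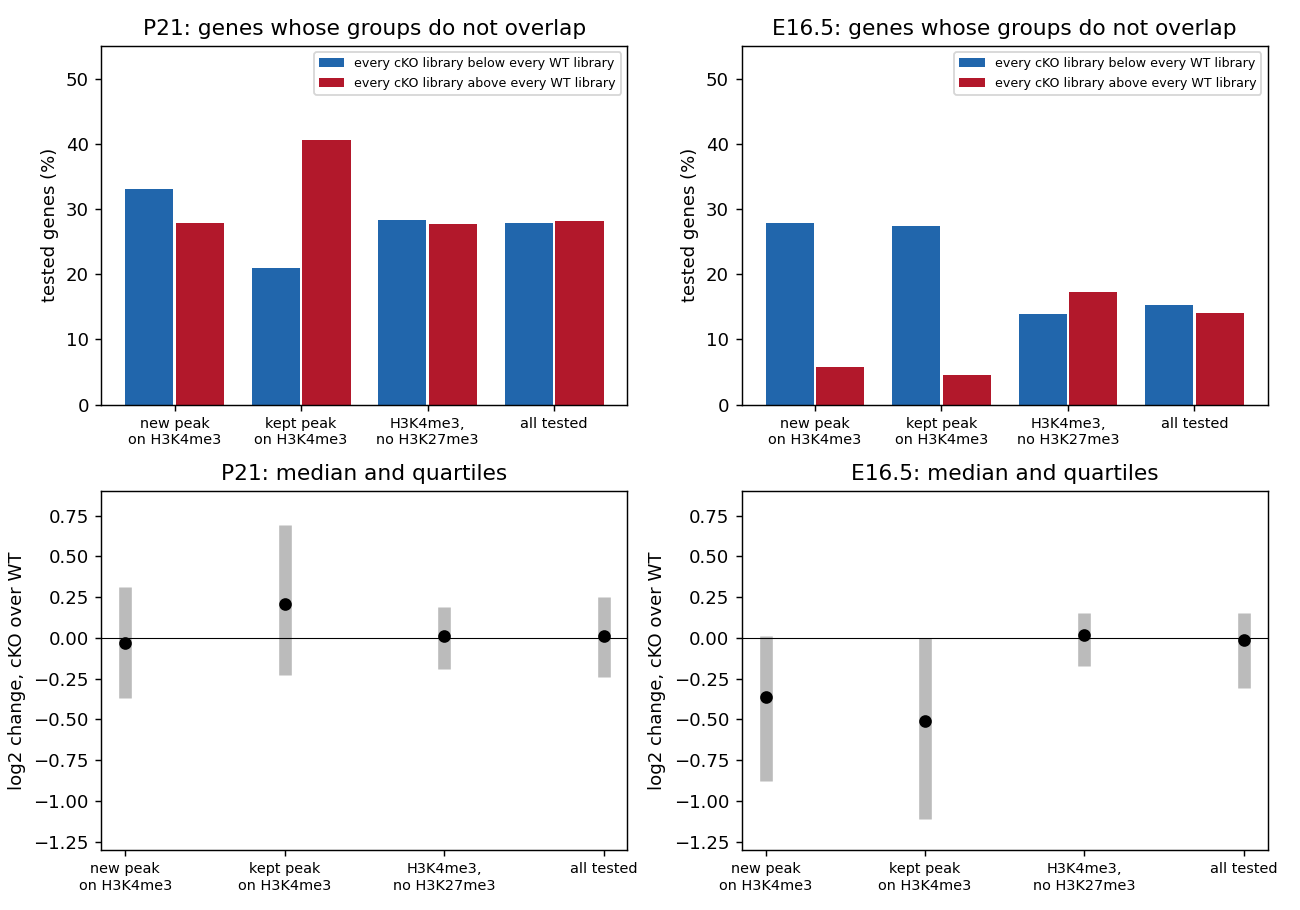
RNA at P21 (left) and E16.5 (right) for genes with a new H3K27me3 peak on H3K4me3, with a kept peak on H3K4me3, with H3K4me3 and no H3K27me3, and all tested genes. Top: share of genes (%) whose cKO libraries all lie below (blue) or above (red) all WT libraries; bottom: log2 change of cKO over WT, with medians as points and quartiles as grey bars. Genes with a new peak have a median of -0.03 at P21 and -0.36 at E16.5.

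Genes of dentate granule neurons were among those that fell at P21. Prox1, the homeodomain factor that sets granule cell identity, had 50.1 and 28.5 CPM in cKO, against 139 and 146 in WT (log2 change -1.86, SE 0.28, edgeR adjusted p = 0.0315). The groups did not overlap, yet the call was lost without either WT replicate, with an adjusted p of up to 0.191. C1ql2, a secreted organiser of mossy fibre synapses, had 5.78 and 5.92 CPM in cKO, against 27.6 and 23.9 in WT (-2.14, SE 0.15, edgeR adjusted p = 0.00101). Its new peak of 3277 bp (chr1:120340103-120343379) had a fold enrichment of 11.09 and H3K27ac in neither genotype. Grm2, a presynaptic metabotropic glutamate receptor gene, had 17.1 and 16.5 CPM in cKO, against 84.5 and 84.0 in WT (-2.33, SE 0.11, edgeR adjusted p = 0.000246). Its peak was low (4.74-fold) and lay wholly on H3K4me3. Over the whole list of hippocampal neuron markers 3 of 14 were lower and 2 higher, against 3.91% and 2.81% of all tested genes. The list's summed level was 3668 to 4507 CPM in cKO and 3896 to 4155 CPM in WT.

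A pair of genes of myelinating cells fell as far. Padi2, which encodes a peptidylarginine deiminase, had 10.6 and 9.73 CPM in cKO, against 48.4 and 54.4 in WT (log2 change -2.34, SE 0.13, edgeR adjusted p = 0.00049). Ugt8a, which makes the myelin lipid galactosylceramide, had 18.4 and 17.0 CPM in cKO, against 68.6 and 74.5 in WT (-2.01, SE 0.11, edgeR adjusted p = 0.00049). In both genes cKO and WT were far apart and the call held without each library. Oligodendrocyte lineage markers moved with them, although Cspg4 alone of the 12 had a new peak. Of that list 8 were lower and none higher, against 3.91% and 2.81% of all tested genes. Its summed level was 4371 to 4720 CPM in cKO and 7329 to 7877 CPM in WT. None was at 0 in every P21 library, and the part of this shift in the change of Padi2 and Ugt8a was not tested.

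Other genes with the lowest changes were Egr2, Kif26b, Lmcd1, Insc, Ghsr and Casr. Egr2, an activity-induced zinc finger factor, had 1.59 and 0.451 CPM in cKO, against 12.6 and 15.7 in WT (log2 change -3.77, SE 0.49, edgeR adjusted p = 0.0168), and the call was lost without either WT replicate, with an adjusted p of up to 0.0709. Of 18 immediate early genes, which neurons induce on activity, 11 were lower and 1 higher at P21, against 3.91% and 2.81% of all tested genes. Their median log2 change was -0.76. Every cKO library was below every WT library for 16 of the 18, against 27.9% of all tested genes. Egr2 was 1 of 3 in that list with a new peak, and the part of the list's shift in its change was not tested. Egr2 also had a kept or WT H3K27me3 peak within 1 kb of its start, so its promoter region was not free of other H3K27me3 peaks. Kif26b, a kinesin family gene, had 11.5 and 6.57 CPM in cKO, against 42.0 and 43.4 in WT (-2.24, SE 0.25, edgeR adjusted p = 0.00817). At its promoter H3K27ac was called in WT alone. Lmcd1, Insc, Ghsr, the ghrelin receptor gene, and Casr, the calcium-sensing receptor gene, were below 4 CPM in every library at P21. Their log2 changes were between -3.45 and -2.01, and the call of Casr rested on single libraries (adjusted p up to 0.159), as did that of Insc without WT replicate 2 (0.0554).

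Fewer genes under a new peak rose than fell, and 9 of the 10 highest changes were of genes with a low level. Cdkn1a, the cell cycle inhibitor p21, was the most abundant of the 10 highest, with 54.0 and 71.6 CPM in cKO, against 10.7 and 15.5 in WT (log2 change 2.26, SE 0.22, edgeR adjusted p = 0.00498). Its peak was 351 bp long with 5.11-fold enrichment, and H3K27ac was called there in cKO alone. The other 9 were Tshr, Ism2, Slc5a8, Jhy, Tc2n, Sim2, Selenov, Wdr63 and 4930447C04Rik, with log2 changes of 2.14 to 4.27. Sim2 also had a kept or WT H3K27me3 peak near a gene end, unlike the others of the 9. Each was below 10 CPM in every P21 library, and of these 9 only 4930447C04Rik kept its call without each library. In each of the 9, cKO replicate 1 was above cKO replicate 2. The gap was wide for Tshr (2.36 and 0.752 CPM) and Jhy (4.63 and 1.65 CPM) and small for Selenov (2.31 and 2.01 CPM). Jhy and Wdr63 are genes of motile cilia. Foxj1, the master factor of motile cilia, also rose, with 21.2 and 16.0 CPM in cKO, against 8.71 and 7.22 in WT (1.22, SE 0.19, edgeR adjusted p = 0.0131, 0.0554 without WT replicate 2). Of 9 choroid plexus and ependymal markers 2 were higher, Foxj1 among them, against 2.81% of all tested genes. The summed level of these markers overlapped between 1047 to 3629 CPM in cKO and 1187 to 1424 CPM in WT. Its part in the change of these genes was not tested.

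Drd1 rose to 11.7 and 14.4 CPM in cKO, against 4.01 and 3.66 in WT (log2 change 1.76, SE 0.20, edgeR adjusted p = 0.00435). Ppp1r1b, the DARPP-32 gene that acts downstream of dopamine receptors, had 98.1 and 140.2 CPM in cKO, against 57.5 and 59.6 in WT (1.02, SE 0.17, edgeR adjusted p = 0.0193, 0.0673 without WT replicate 2). Both are striatal neuron markers. In that list 8 of 9 genes had every cKO library above every WT library, against 28.2% of all tested genes. Past the threshold were 3 of them, against 2.81% of all called higher. The list's summed level was 172 to 268 CPM in cKO and 95.3 to 104 CPM in WT. None of its genes was at 0 in every P21 library, and the part of other tissue in the dissection was not tested. Lhx9, a LIM homeobox factor and thalamic marker with a peak of 12.63-fold, had 31.2 and 27.2 CPM in cKO, against 15.6 and 13.3 in WT (1.01, SE 0.14, edgeR adjusted p = 0.00944, 0.0521 without WT replicate 2). Epop, a PRC2-associated subunit gene, had 42.2 and 57.6 CPM in cKO, against 25.2 and 22.7 in WT (1.06, SE 0.16, edgeR adjusted p = 0.013, 0.0553 without WT replicate 2).

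Many of these P21 calls depended on the fit. With all 10 libraries in 1 edgeR fit, 24 of 34 calls of genes chosen to be named were lost. C1ql2, Grm2, Padi2, Ugt8a, Egr2, Lmcd1 and Epop were still called. The edgeR adjusted p in that fit was 0.058 for Kif26b, 0.0592 for Prox1, 0.0801 for Cdkn1a, 0.176 for Ppp1r1b, 0.179 for Drd1, 0.491 for Lhx9 and 0.495 for Foxj1. The log2 changes there were close to those above, at -1.88 for Prox1 and 2.24 for Cdkn1a.

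**Figure D5:**
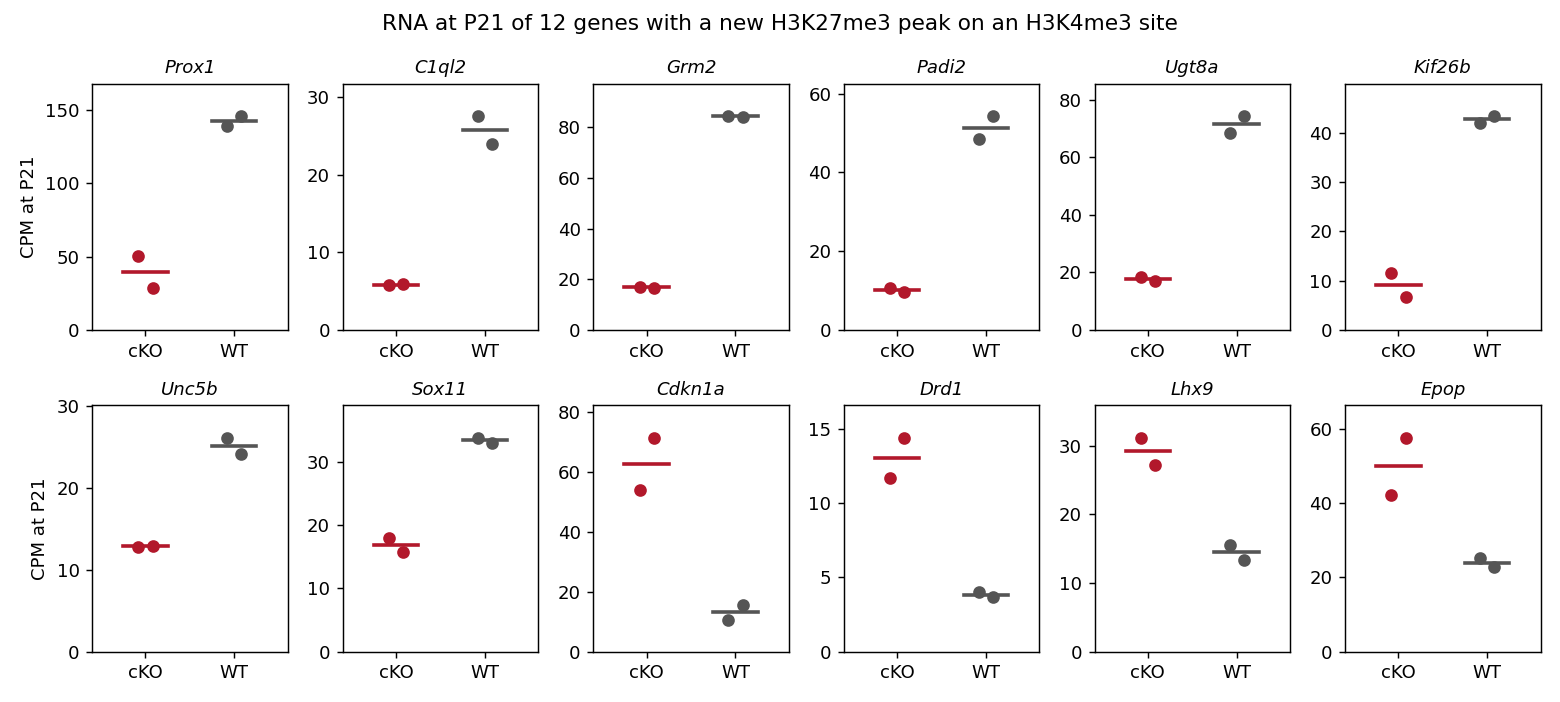
RNA level in CPM at P21 for 12 genes with a new H3K27me3 peak on an H3K4me3 site and a changed level, chosen for display after their values were seen. Points are single libraries (2 cKO left, 2 WT right) and lines are means; cKO and WT do not overlap in any panel, with Prox1 at 50.1 and 28.5 CPM in cKO against 139 and 146 in WT.

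Within the functional lists, genes under a new peak are set beside the whole list, and beside the 3.91% lower and 2.81% higher of all genes tested at P21. Of 47 tested channel genes with a new peak 4 were lower and 1 higher, and of all 94 tested channel genes 8 were lower and 1 higher. Among those lower were Cacna1g (log2 change -0.94), Kcnc4 (-1.0) and Kcnh1 (-0.73), and the one higher was Kcnt1 (0.58). All 5 axon guidance genes called of 21 were lower, namely the commissural receptor Robo3 (-1.68), the netrin receptor Unc5b (-0.97), the Eph receptors Ephb2 (-0.91) and Ephb1 (-0.76), and the semaphorin receptor Plxnd1 (-0.53). In the whole axon guidance list 12 of 71 were lower and none higher. Of 18 synapse genes 4 were lower, Grm2, Grin3a (-0.71), Gabrd (-0.61) and Nrgn (-0.51), and none was higher, beside 10 lower and none higher of 72 in the whole list. Homeobox factors gave 3 lower (Prox1, Emx2 at -1.35 and Emx1 at -0.75) and 2 higher (Lhx9 among them) of 17, and the whole list 4 lower and 8 higher of 66. Emx1 and Emx2 pattern the dorsal telencephalon. The Emx1 call (edgeR adjusted p = 0.0462) was lost in DESeq2 (0.071), with the replicate block (0.0801) and without either WT replicate (0.202 and 0.19). Sox11 fell (-0.99), while Sox9 (0.79) and Foxj1 rose, of 12 forkhead, Sox, Gata and T-box factors, where the whole list had 1 lower and 4 higher of 50. Among 16 bHLH factors the Notch effector Hes5 (2.02), Id1 (1.34) and Sim2 rose and Bhlhe22 (-0.51) fell, with 3 lower and 5 higher of 39 in the whole list. The Sim2 call (edgeR adjusted p = 0.0466) was lost in DESeq2 (0.0751). Of 24 ligands and inhibitors Bmp2 (1.16) rose alone, with 2 lower and 4 higher of 56 in the whole list. All these passed edgeR's adjusted p of 0.05.

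The share of genes called lower showed no steady order by height or length of the new peak. Genes called lower at P21 were 9.35% where the fold enrichment was under 5, 7.89% at 5 to 7, 8.58% at 7 to 9 and 7.86% from 9 up. By peak length they were 8.56% under 500 bp, 7.72% at 500 to 1000 bp, 9.60% at 1000 to 2000 bp and 7.69% from 2000 bp up. By H3K27ac state of the gene's strongest new peak, the shares differed. Of 279 genes with H3K27ac in both genotypes 37 (13.3%) were lower and 4 (1.43%) higher, and of 25 with H3K27ac in WT alone 6 (24.0%) were lower and none higher. Where it was in neither genotype 66 of 898 (7.35%) were lower and 49 (5.46%) higher, and where it was in cKO alone 28 of 414 (6.76%) and 25 (6.04%). No difference between these states was tested.

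At E16.5, before the age of the ChIP, the levels of these genes were shifted down, but few single genes passed. Of 1560 tested genes 4 were lower (0.256%) and 1 higher (0.0641%), against 0.112% and 0.0118% of all 16958 (edgeR). At an unadjusted p under 0.05, 365 (23.4%) were lower and 74 (4.74%) higher, against 11.5% and 9.13% of all. Every cKO library lay below every WT library for 433 genes (27.8%) and above for 89 (5.71%), against 15.3% and 14.0% of all. DESeq2 called 177 (11.6%) lower and 38 (2.50%) higher, against 4.26% and 2.09%. The median log2 change was -0.36, against -0.01 over all tested genes, and it was -0.25 without cKO replicate 1 and -0.53 without cKO replicate 3. It was -0.51 for genes with a kept peak on H3K4me3, -0.48 for those with a new peak away from H3K4me3 alone, and 0.02 for those with H3K4me3 and no H3K27me3. No difference between these sets was tested. Markers of other cells were also lower in cKO at E16.5. All 11 microglia markers, 9 of 10 endothelial and mural markers and 6 of 7 meningeal fibroblast markers had every cKO library below every WT library. Their summed levels were 49.7 to 78.5, 170 to 204 and 32.8 to 95.2 CPM in cKO, against 106 to 188, 239 to 538 and 147 to 1154 CPM in WT. The summed level of astrocyte markers was 222 to 425 CPM in cKO and 559 to 814 CPM in WT, with a median log2 change of -1.15, and that of oligodendrocyte lineage markers 121 to 183 CPM in cKO and 227 to 242 CPM in WT. None of these markers was at 0 in every E16.5 library, and their part in the shift was not tested.

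The 5 genes called at E16.5 were Bcan, Grp, Efs, Hpca and Ptx3. Bcan, the gene of brevican, had 10.7, 9.50 and 15.7 CPM in cKO, against 105, 113 and 122 in WT (log2 change -3.24, SE 0.20, edgeR adjusted p = 0.0112). Grp, the gastrin-releasing peptide gene, had 0.897, 0.735 and 0.50 CPM in cKO, against 19.8, 14.7 and 15.8 in WT (-4.56, SE 0.26, edgeR adjusted p = 0.0103). In both genes every cKO library was far below WT. Efs, an adaptor of the Cas family (-0.95), and Hpca, the neuronal calcium sensor hippocalcin (-0.62), fell, and Ptx3, a secreted pentraxin, rose (1.42), with edgeR adjusted p of 0.0316, 0.0376 and 0.0472. None of the 5 calls held without each library in turn, the adjusted p reaching 0.0906 for Bcan and Grp, 0.212 for Efs and 0.264 for Hpca and Ptx3, while the log2 changes stayed between -3.49 and -3.09 for Bcan and between -4.74 and -4.35 for Grp.

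Over both ages, 157 of 1478 genes tested at each (10.6%) had every cKO library below every WT library at both, against 5.85% of all, and 22 (1.49%) were above at both, against 4.20% of all. Another 147 of the 1478 lay below WT at 1 age and above it at the other, as did 1141 of all 15851 genes tested at both. Prox1 was low at both ages, with 12.5, 33.6 and 26.6 CPM in cKO at E16.5, against 71.9, 55.1 and 64.4 in WT (log2 change -1.40, edgeR adjusted p = 0.154). That change did not pass the test. The difference between ages, P21 change minus E16.5 change, was tested in 1 fit. Of 1721 genes 17 (0.988%) were higher and 22 (1.28%) lower, against 0.427% and 0.738% of all 18979 (edgeR), and the median difference was 0.36, against 0.02 over all. The counts depended on single libraries, and the shares called over all genes moved the same way each time. Both counts fell when any P21 library was left out. Without WT E16.5 replicates 1, 2 and 3 the counts higher and lower were 6 and 7, 4 and 3, and 5 and 9. Without cKO E16.5 replicates 1, 2 and 3 they were 31 and 34, 2 and 3, and 64 and 42. The median difference stayed between 0.24 and 0.51 in all these runs. Bcan had the clearest difference (3.40, edgeR adjusted p = 0.00894), with 242 and 325 CPM in cKO at P21, against 266 and 229 in WT. Its groups overlapped at P21 and were far apart at E16.5. C1ql2 showed the reverse (-2.66, edgeR adjusted p = 0.019), with at most 1.20 CPM in every E16.5 library and its fall at P21. Gstt3 (5.14) and Emilin2 (3.49) were the other highest differences, and Pimreg (-2.94) and Vipr1 (-2.39) the other lowest. Gstt3 was near the floor at E16.5, with 0.168, 0.0565 and 0.05 CPM in cKO, against 1.89, 1.18 and 0.462 in WT. Pimreg was so at P21, with 0.0964 and 0.0501 CPM in cKO, against 0.451 and 0.401 in WT. Neither passed the filter on low counts at that age.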

How the data were processed

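Hippocampi of cKO and WT mice were profiled by ChIP-seq (8 libraries, 1 for each mark or input and genotype) and by polyA RNA-seq (10 libraries). Per the file headers, the authors called narrow peaks against same-genotype input (MACS 2.2.7.1, q-value at most 0.01). The submitters' processing notes name Bowtie2 2.3.5.1, MACS2 2.2.5 and GRCm38. Per the file headers each deposited peak carries a pileup signal, a fold enrichment ratio over input, and a p-value and a q-value written as −log10. For RNA the authors deposited estimated counts per gene, from Salmon 1.0.0 per the submitters' processing notes. The summing per gene and the use of strand are not given in the sources used here. The authors' deposited comparison tables hold log2 fold changes, p-values and a mean-level score. Only the gene symbols and gene types in those tables were used.

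Overlap meant 1 bp or more (bedtools 2.31.1), and shares have 95% Wilson intervals (scipy 1.17.1). A gene was given a peak when it overlapped 1 kb either side of a RefSeq start of GRCm38.p6 (21108 genes) or, for genes without an entry in the promoter table, of either gene end (18093 genes). The other 16184 identifiers had no coordinates. Estimated counts were rounded, filtered with filterByExpr, scaled by TMM and tested with edgeR's robust quasi-likelihood F test (version 4.0.16, R 4.3.3), separately at each age. P-values were adjusted by Benjamini-Hochberg over all tested genes, at a threshold of 0.05. Standard errors derive from F and are approximate. The difference between ages was a contrast in 1 fit of all 10 libraries. Alternatives covered DESeq2 1.42.0, its size factors, other filters, a replicate block, each library left out, stricter peak lists and wider windows. In simulated counts edgeR recovered 84.1% of 2-fold changes at P21 and 70.5% at E16.5, with 16 of 200 and 13 of 178 calls false. For the difference between ages 25.8% of 2-fold changes were recovered, with 4 of 118 calls false. The changed genes were drawn only from those above a set mean CPM, so recovery for genes of low level was not measured.

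Named were Arid1a, genes at the 10 members with the highest fold enrichment and at the 5 widest, the 10 highest and 10 lowest changes at P21 among called genes with at least 1 CPM in the higher group, all called genes at E16.5, the 3 highest and 3 lowest differences between ages, and up to 3 genes of each list with the highest fold enrichment. The members, gene lists and tests were chosen with earlier results of these data known. Genes named beyond that rule were chosen after their values were seen. A few genes that this rule or the list counts include are not reported by name here.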

Additional observations from a re-analysis of the deposited data

Results flagged for a closer look

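Of the 1721 tested genes under a new H3K27me3 peak on an H3K4me3 site, 17 (0.988%) had a higher and 22 (1.28%) a lower change at P21 than at E16.5. Over all 18979 tested genes the shares were 0.427% and 0.738%. Those of the 17 and 22 that the rule for named genes also chose are listed here. Their cKO change differed between ages in the test of that difference itself (P21 minus E16.5, log2, edgeR adjusted p under 0.05). Higher at P21 than at E16.5 were Gstt3 (5.14), Emilin2 (3.49), Bcan (3.40), Grp (3.39) and Hpca (0.90). Bcan kept its call with each of 10 libraries left out, Grp with 7 of them left out, Gstt3 and Hpca with 3 and Emilin2 with 2. Gstt3 at E16.5 and Pimreg, named next, at P21 were too low to pass the filter on low counts at that age alone. Lower at P21 than at E16.5 were Pimreg (-2.94), C1ql2 (-2.66), Vipr1 (-2.39), Kcng1 (-1.89), Sox11 (-1.59) and Emx1 (-1.21). Sox11 and Emx1, both factors of the developing telencephalon, had a fall at P21 beside 2596, 2003 and 1602 CPM in cKO and 1252, 1399.6 and 1562 CPM in WT for Sox11 at E16.5, and 53.8, 69.3 and 60.6 CPM in cKO and 46.0, 42.9 and 48.4 CPM in WT for Emx1. Of these 6, C1ql2 kept its call with 6 libraries left out in turn, Pimreg with 5 and the others with 2.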

How the results depend on the processing

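With 1 ChIP library per mark and genotype, the peaks have no replicate check. The number of new peaks fell to 1095 with the cKO list cut to as many peaks as WT, and cKO and WT H3K27ac then overlapped 30.2% and 12.9% of them. With at least 50% of the peak on H3K4me3 the shares were 42.6% and 18.3%, with 91.1% for WT H3K4me3, which was 86.1% at −log10 q of at least 5. At P21 the counts lower and higher were 43 and 16 in the fit of all 10 libraries (2.5% and 0.93%, against 1.84% and 0.817% of all). For the shorter peak list they were 53 and 38, and the shares over all genes stayed at 3.91% and 2.81%. With no filter on low counts they were 222 (11.6%) and 137 (7.19%), against 3.87% and 2.9% of all genes. At E16.5 the counts lower and higher were 177 and 38 by DESeq2 (11.6% and 2.5%, against 4.26% and 2.09% of all). In the fit of all 10 libraries they were 38 and 8 (2.21% and 0.465%, against 0.769% and 0.169%). With no filter they were 30 and 6 (1.57% and 0.313%, against 0.314% and 0.0717%), and none was higher for the shorter peak list. For the difference between ages DESeq2 gave 104 (6.6%) higher and 78 (4.95%) lower, against 2.51% and 4.5% of all. With no filter 28 (1.45%) were higher, against 0.34% of all. With each library left out in turn, counts ran from 62 to 251 lower and 21 to 170 higher at P21, from 0 to 4 lower with 0 higher at E16.5 (0 to 0), and from 1 to 64 higher and 0 to 42 lower for the difference. Replicate numbers are shared between cKO and WT, but same-numbered libraries did not deviate together (correlations of 0.02 at P21 and -0.23, -0.02 and -0.49 at E16.5). With the replicate block 113 (6.99%) and 66 (4.08%) genes were lower and higher at P21, against 2.88% and 2.07% of all. The counts were 0 and 0 at E16.5, against 0% and 0% of all, and 0 and 0 for the difference, against 0.00527% and 0% of all. No named change turned its sign in any alternative run, but of 34 named P21 calls 24 were lost in the fit of all 10 libraries, 4 in DESeq2, 2 with the replicate block and 1 with no filter, and 12 held without each library. All 5 named E16.5 calls and all 11 named differences were lost with the replicate block. The filter on the mean over all libraries was chosen after seeing the data and kept every named call it could test. The causes of these shifts were not tested.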

Other observations

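Some genes carried several separate new H3K27me3 peaks on H3K4me3 sites within reach of their starts. Of the 1976 genes 425 had more than 1, and Bcl2l11, the gene of the cell death factor BIM, had the most with 5. Hes1, Nrn1, Zfp423, Arhgap6, Slc35f3 and Ccbe1 had 4 each. These genes were chosen after their values were seen. Nrn1, which encodes the neuronal surface protein neuritin, had 168 and 178 CPM in cKO at P21, against 237 and 251 in WT (log2 change -0.49, edgeR adjusted p = 0.0323). Arhgap6 had 10.7 and 6.27 CPM in cKO, against 2.75 and 2.71 in WT (1.64, edgeR adjusted p = 0.0213). Bcl2l11 had 7.18 and 7.12 CPM in cKO, against 5.51 and 6.32 in WT (0.27, edgeR adjusted p = 0.428), and did not pass the test.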
